A study of Mus musculus with 4 samples.

Results

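The genes described here are the interferon receptors and the genes of the interferon response that were measured in cells sorted from mouse colon. They comprise 4 receptor chains, Stat2 and 6 interferon regulatory factors, 4 nucleic acid sensors and 27 effectors and modifiers, chosen by symbol. All 42 symbols were present among the 14519 genes of the authors' table. Of these, 33 reached at least 5 RPM, reads scaled to a library total of 1000000, in at least 2 libraries and were tested, among 10183 genes tested in all. The other 9 are given as values. The tested cells were Reg4+ deep crypt secretory (DCS) cells, sorted from colonic epithelium by the Reg4-dsRed reporter (2 libraries). They were set against Lgr5+ cells, sorted by the Lgr5-GFP reporter (2 libraries). DCS cells are secretory cells that sit at the base of colonic crypts beside the Lgr5+ stem cells, and the study asked for the expression signature of the DCS population. Sort and library preparation were carried out in 2 rounds. The sources used here do not give the strain, age or sex of the mice, the number of animals behind a sort, or whether replicate 1 of each population came from the same round. The p-values therefore measure only the spread between these libraries. No library was labelled as treated with interferon or infected.

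Interferons are secreted alarm proteins. Type I interferons bind the Ifnar1 and Ifnar2 chains on almost every cell, type II interferon binds Ifngr1 and Ifngr2, and type III interferons bind Ifnlr1 together with Il10rb, a route used mainly by epithelia such as that of the gut. The receptors activate Janus kinases, which phosphorylate Stat proteins. A complex that holds Stat2 and Irf9 binds the interferon-stimulated response element in target promoters, whereas the route from the type II receptor ends at the gamma-activated site. The targets include sensors of viral nucleic acid, enzymes that destroy or edit RNA, GTPases that act on microbes within the cell, and the ubiquitin-like modifier Isg15.

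Motifs of interferon targets, named above, were searched in RefSeq promoter windows (GRCm38.p6), which run from 250 bases before to 50 bases after each start. A window was present for 35 of the 42 genes and was not used here for Dhx58, Mx2, Parp14, Parp9, Rtp4, Usp18 and Zbp1. The core of the interferon-stimulated response element, searched as GAAA, any 2 bases and GAAA (on the other strand TTTC, any 2 bases and TTTC), lay in the windows of 15 of the 35 genes (42.9%), against 3.99% of the 27025 genes in the promoter table. It was found in Stat2, Irf2, Ifih1, Ddx58, Oas1a, Oas1g, Eif2ak2, Ifit1, Ifit3, Rsad2, Bst2, Gbp2, Gbp3, Gbp7 and Isg15. The following 6 sites are shown because they belong to genes whose values are taken up again below, with the core in capitals, 5′ to 3′ on the strand of the gene.
Isg15 (chr4:156200871-156200900, minus strand): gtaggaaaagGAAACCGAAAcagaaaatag
Oas1a (chr5:120907526-120907555, minus strand): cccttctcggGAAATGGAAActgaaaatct
Bst2 (chr8:71537577-71537606, minus strand): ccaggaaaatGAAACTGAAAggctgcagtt
Stat2 (chr10:128270266-128270295, plus strand): cgcaccctggTTTCAGTTTCctttccctag
Rsad2 (chr12:26456553-26456582, minus strand): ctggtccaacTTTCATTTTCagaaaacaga
Ifit1 (chr19:34640794-34640823, plus strand): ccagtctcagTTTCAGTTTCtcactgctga
In Isg15, Oas1a and Bst2 the core reads in the GAAA orientation, and in Stat2, Rsad2 and Ifit1 in the TTTC orientation.

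The gamma-activated site, searched as TTCNNNGAA, which reads the same on both strands, lay in 13 of the 35 genes (37.1%), against 9.55% of all genes in the promoter table. It was found in Ifnar1, Ifnar2, Irf1, Irf2, Irf8, Oas1a, Eif2ak2, Adar, Isg20, Bst2, Gbp7, Ifi35 and Ifit2. The 3 sites below stand for the transcription factors and for an exonuclease, with the motif in capitals.
Irf1 (chr11:53769914-53769942, plus strand): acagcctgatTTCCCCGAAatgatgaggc
Irf8 (chr8:120736177-120736205, plus strand): caaaagtgatTTCTCGGAAagagagcgct
Isg20 (chr7:78913341-78913369, plus strand): ctggggagggTTCTTGGAAtttttccttt
Bst2, Eif2ak2, Gbp7, Irf2 and Oas1a held both motifs, which shared bases in the window of 1 gene. A match describes the letters of the window and no binding was measured.

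Libraries held 5448260 to 7414264 recovered reads in Reg4+ DCS and 5205723 to 7955340 in Lgr5+, and the 33 tested genes had 14 to 1578 reads per library. The sort markers followed the labels, as Reg4 measured 6187 and 5899 RPM in Reg4+ DCS, against 796 and 363 RPM in Lgr5+, and Lgr5 measured 0.989 and 3.13 RPM in Reg4+ DCS, against 46.5 and 48.8 RPM in Lgr5+. The 6 DCS and goblet markers summed to 66336 and 65366 RPM in Reg4+ DCS, against 3692 and 1952 RPM in Lgr5+. On the RPM scale the log2 fold changes over all tested genes had a median of -0.47. Scaling by median of ratios instead moved that median to 0.02, and each value below should be read relative to it. With RNA from sorted populations, fewer cells of a type and less RNA per cell cannot be told apart. In Reg4+ DCS, 1641 genes were listed at 0 in both libraries, so a 0 there is reported only as listed. Each Reg4+ DCS column behaved as the mean of 2 separately scaled parts (A and B), and 104 tested genes, none of them a member, had 0 reads in part A of both libraries or in part B of both.

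Few genes of the family passed the test between the populations. Zbp1 was higher in Reg4+ DCS and Irf8 was lower, and these were the only 2 of the 33 tested genes that passed an adjusted p of 0.05 (limma on log2(RPM + 1), Benjamini-Hochberg over 10183 genes). Those 2 are 6.06% of the tested members, against a background of 34.1% of all tested genes. By direction, 1 of 33 was higher in Reg4+ DCS, against 7.18% of all tested genes, and 1 of 33 was lower, against 26.9%. With median-of-ratios scaling, 5 members were higher in Reg4+ DCS (Bst2, Ifih1, Isg20, Rsad2 and Zbp1, against 15.6% of all genes) and 1 was lower (Irf8, against 12.7%). The members' median log2 fold change was -0.34, beside -0.47 for all tested genes, and 21 of the 33 lay above that all-gene median. With median-of-ratios scaling the members' median was 0.16, beside 0.02 for all tested genes. The lowest median by role was that of the 3 tested receptors at -0.57, followed by the 7 factors at -0.53. The highest was that of the 4 sensors at 0.20. With median-of-ratios scaling these medians were -0.07, -0.04 and 0.68, in the same order. In fits that left out a library, the population with 1 library left was assumed to vary like the other population. Without Reg4+ DCS replicate 1 neither gene passed, where 3.59% of all tested genes were higher and 10.6% lower. Without Reg4+ DCS replicate 2, 1 member was higher (against 3.5% of all tested genes) and 2 were lower (Irf3 and Irf8, against 23%). Without Lgr5+ replicate 1, 2 members were higher (Rsad2 and Zbp1, against 7.58%) and 1 was lower (against 17.3%). Without Lgr5+ replicate 2, 1 member was higher (against 5.97%) and 5 were lower (Irf8, Ifnar1, Oasl2, Rtp4 and Xaf1, against 16.8%).

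**Figure D1:**
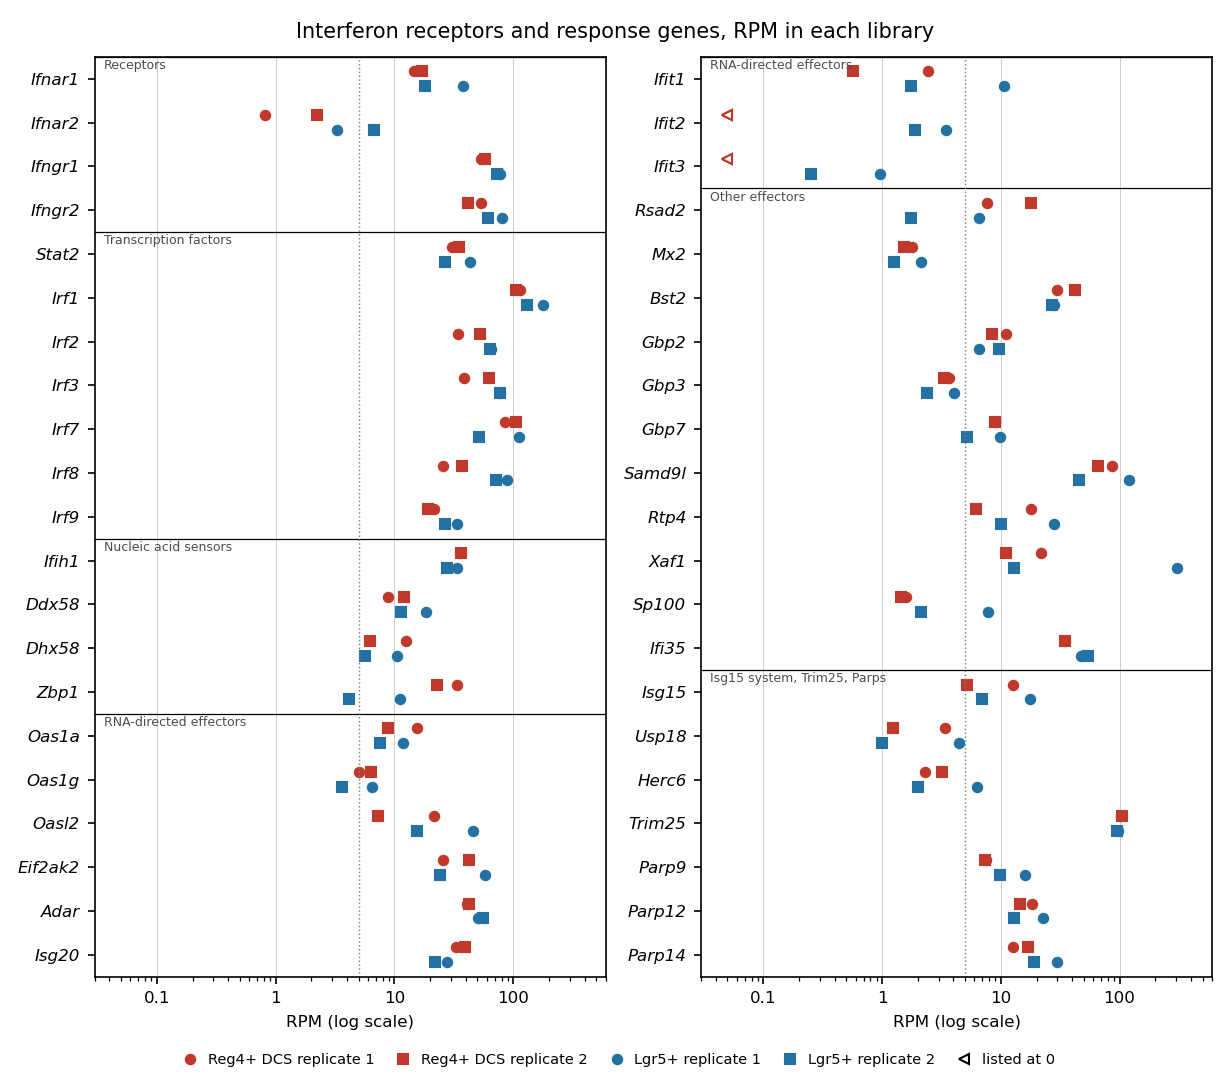
RPM (log axis) of the 42 interferon receptor and response genes in each library, by role, with Reg4+ DCS in red above Lgr5+ in blue, circles for replicate 1 and squares for replicate 2, open triangles for values listed at 0 and a dotted line at 5 RPM. Zbp1 is the gene whose red symbols lie farthest to the right of its blue ones among the sensors, and Xaf1 has a single blue circle at 303 RPM.

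The receptor chains were all detected, with Ifnar2 at the lowest level. Ifnar1 (chr16:91485238-91507441, plus strand, GRCm38), the signalling chain for type I interferon, measured 14.6 and 17.1 RPM in Reg4+ DCS, against 37.7 and 18.1 RPM in Lgr5+. Its log2 fold change was -0.69 ± 0.37 (SE, limma adjusted p = 0.175). Both Reg4+ DCS libraries lay below both Lgr5+ libraries, an order seen in 56.2% of all tested genes. Lgr5+ replicate 1 stood apart at 37.7 RPM, and it set the size of the difference. Without Lgr5+ replicate 2 the log2 fold change was -1.20, and without Lgr5+ replicate 1 it was -0.18. Ifnar2, its partner chain, measured 0.808 and 2.23 RPM in Reg4+ DCS, against 3.27 and 6.79 RPM in Lgr5+, and was not tested because a single library exceeded 5 RPM. Another annotated gene, Gm21970, runs over the 3′ end of Ifnar2, where CEL-seq reads fall.

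Ifngr1, the ligand-binding chain for interferon gamma, measured 53.1 and 57.6 RPM in Reg4+ DCS, against 77.0 and 73.2 RPM in Lgr5+. Ifngr2, the accessory chain, measured 53.1 and 41.6 RPM in Reg4+ DCS, against 80.1 and 61.8 RPM in Lgr5+. For both, the populations did not overlap, with the Reg4+ DCS libraries below, as in 56.2% of all tested genes. Neither difference passed the test. The log2 fold changes were -0.43 (limma adjusted p = 0.166) for Ifngr1 and -0.57 (adjusted p = 0.118) for Ifngr2. With median-of-ratios scaling they were 0.07 for Ifngr1 and -0.07 for Ifngr2, so the direction of Ifngr1 turned with the scaling.

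Among the transcription factors, Irf8 was lower in Reg4+ DCS and the other 6 did not pass. Irf8 (chr8:120736358-120756694, plus strand), best known as a factor of myeloid and B cells, measured 25.5 and 37.0 RPM in Reg4+ DCS, against 89.1 and 71.0 RPM in Lgr5+. Every Reg4+ DCS library was below every Lgr5+ library. The means were 31.2 ± 8.11 RPM in Reg4+ DCS and 80.1 ± 12.8 RPM in Lgr5+ (SD, n = 2 each), a level 2.56 times as high in Lgr5+, with a log2 fold change of -1.35 ± 0.28 (limma adjusted p = 0.00851). Irf8 was called in 12 of 13 alternatives, the exception being the fit that left out Reg4+ DCS replicate 1 (adjusted p = 0.0603). The annotated gene Gm20388 lies over the 3′ end of Irf8 on the same strand, and the reads of the pair cannot be told apart.

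Leukocyte markers moved in the same direction as Irf8. Of 16 leukocyte markers listed, 10 were in the table, and Csf1r, a further defining marker, was not. The 10 summed to 2.23 RPM in each Reg4+ DCS library, against 61.3 and 54.3 RPM in the Lgr5+ libraries. The defining markers Ptprc (CD45), Cd3e and Cd79a were listed at 0 in each Reg4+ DCS library. In Lgr5+ Ptprc measured 40.1 and 9.55 RPM, Cd3e 1.54 and 0.754 RPM, and Cd79a 0.960 and 1.26 RPM. Cd74 measured 13.4 and 40.5 RPM in Lgr5+, so Ptprc and Cd74 made up most of the Lgr5+ sums. Other markers of the list were low in Lgr5+, with Itgam at 0.768 and 0.377 RPM and Fcer1g at 0.768 and 0.377 RPM. Tyrobp measured 0.192 and 0.126 RPM there, and Itgam overlapped between the populations. Tuft cell markers also moved in that direction. Their 12 genes summed to 3.72 and 4.34 RPM in Reg4+ DCS, against 1244 and 368 RPM in Lgr5+. In both Reg4+ DCS libraries, 6 of the 10 leukocyte markers and 8 of the 12 tuft markers were listed at 0. Such a 0 is reported only as listed. The part of leukocytes and tuft cells in the Irf8 difference was not tested.

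Irf1, an early factor induced by interferon gamma, was the most abundant of the factors in each population, at 115 and 106 RPM in Reg4+ DCS, against 177 and 130.4 RPM in Lgr5+. Irf2, which binds the same promoter elements as Irf1 and mostly acts as a brake, measured 34.5 and 53.0 RPM in Reg4+ DCS, against 64.9 and 64.4 RPM in Lgr5+. Irf3, which is switched on by viral sensors and drives interferon genes, measured 38.2 and 63.1 RPM in Reg4+ DCS, against 78.2 and 77.7 RPM in Lgr5+. These 3 factors had no overlap between the populations, with the Reg4+ DCS libraries below, as did 56.2% of all tested genes. Their log2 fold changes were -0.46 for Irf1, -0.58 for Irf2 and -0.66 for Irf3. With median-of-ratios scaling they were 0.05 for Irf1, -0.08 for Irf2 and -0.15 for Irf3. None passed, at limma adjusted p of 0.168 for Irf1, 0.129 for Irf2 and 0.107 for Irf3. The log2 fold change of Irf3 was -1.01 without Reg4+ DCS replicate 2 and -0.30 without Reg4+ DCS replicate 1.

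Irf9, the DNA-binding partner of Stat2, measured 21.6 and 19.3 RPM in Reg4+ DCS, against 33.4 and 26.6 RPM in Lgr5+. Its libraries did not overlap either, with a log2 fold change of -0.53 (limma adjusted p = 0.163), and -0.04 with median-of-ratios scaling. Stat2 itself, a signal carrier of type I interferon, measured 30.8 and 35.1 RPM in Reg4+ DCS, against 43.0 and 26.9 RPM in Lgr5+. The Reg4+ DCS values of Stat2 lay between the Lgr5+ values, with a log2 fold change of -0.05 (adjusted p = 0.909), and 0.45 with median-of-ratios scaling. Irf7, which amplifies type I interferon production and is itself an interferon target, measured 85.9 and 105 RPM in Reg4+ DCS, against 112 and 52.0 RPM in Lgr5+. The 2 Lgr5+ libraries of Irf7 differed 2.14-fold from each other, more than the populations did on average (log2 fold change 0.31, adjusted p = 0.508). The gene Phrf1 overlaps the 3′ end of Irf7.

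**Figure D2:**
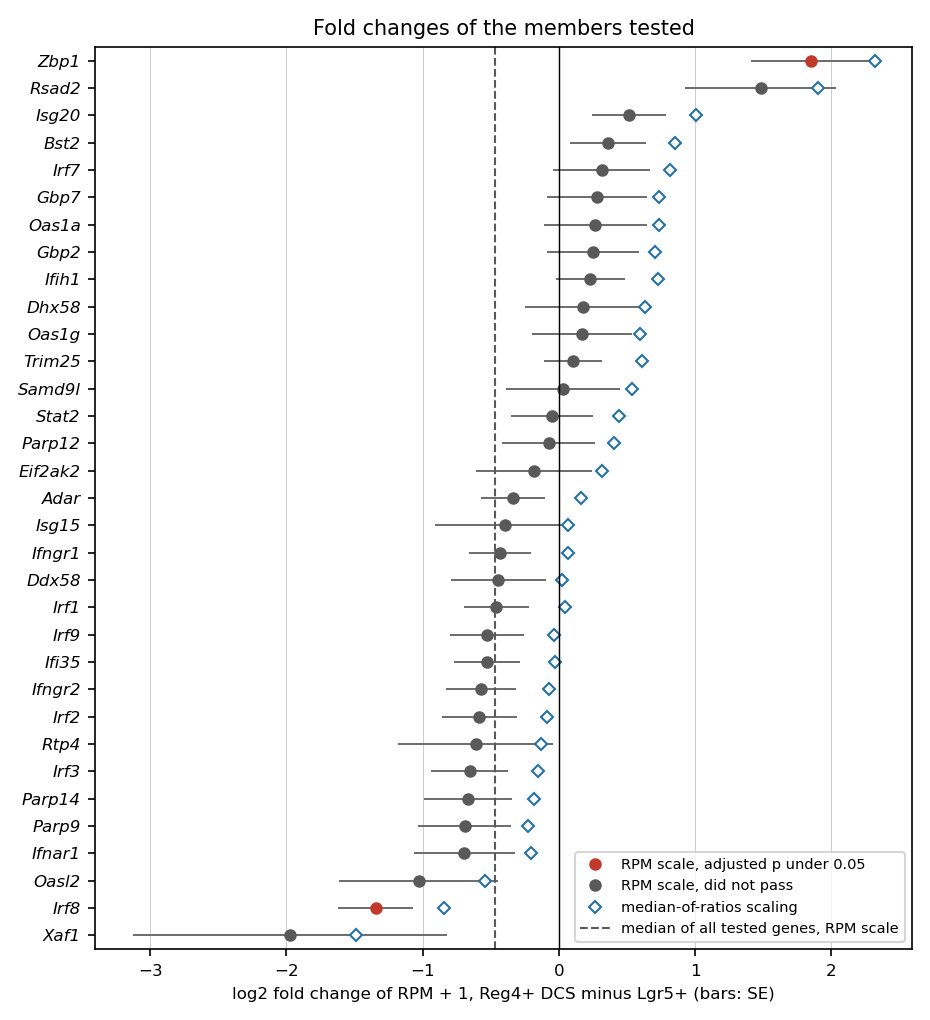
Log2 fold change of RPM + 1, Reg4+ DCS minus Lgr5+, of the 33 tested genes with SE bars (filled circles), the same after median-of-ratios scaling (open diamonds), and the median of all tested genes at -0.47 (dashed line). Zbp1 at 1.85 and Irf8 at -1.35 are the red points that passed an adjusted p of 0.05, and Xaf1 at -1.98 has the widest bar.

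The sensors included the member with the largest called difference. Zbp1 (chr2:173206612-173218923, minus strand), which binds Z-form nucleic acid and can start necroptosis, measured 33.6 and 22.6 RPM in Reg4+ DCS, against 11.1 and 4.15 RPM in Lgr5+. Both Reg4+ DCS libraries were above both Lgr5+ libraries. The means were 28.1 ± 7.72 RPM in Reg4+ DCS and 7.64 ± 4.95 RPM in Lgr5+ (SD, n = 2 each), a 3.68-fold higher level in Reg4+ DCS, with a log2 fold change of 1.85 ± 0.44 (limma adjusted p = 0.0150). The fold ranged from 2.52 to 6.77 when single libraries were left out, and was 6.77 without Lgr5+ replicate 1. The call was kept in 12 of 13 alternatives, and without Reg4+ DCS replicate 1 the adjusted p was 0.115.

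The 3 RNA helicases that sense viral RNA did not pass on the RPM scale. Ifih1 (MDA5), the sensor of long double-stranded RNA, measured 35.6 and 36.1 RPM in Reg4+ DCS, against 33.4 and 27.7 RPM in Lgr5+. Its Reg4+ DCS libraries were both above the Lgr5+ libraries, with a log2 fold change of 0.23 (limma adjusted p = 0.498), and 0.73 (adjusted p = 0.0490) with median-of-ratios scaling. Ddx58 (RIG-I), the sensor of RNA with uncapped ends, measured 8.85 and 12.1 RPM in Reg4+ DCS, against 18.4 and 11.3 RPM in Lgr5+, and the populations overlapped. Dhx58 (LGP2), a relative without its own signalling domain, measured 12.6 and 6.23 RPM in Reg4+ DCS, against 10.6 and 5.66 RPM in Lgr5+. In Dhx58 the gap between replicates exceeded the gap between populations.

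No effector that acts on RNA passed the test on the RPM scale. Isg20, a 3′ to 5′ exonuclease, measured 32.9 and 39.2 RPM in Reg4+ DCS, against 27.9 and 22.1 RPM in Lgr5+. Both Reg4+ DCS libraries were above, with a log2 fold change of 0.52 (limma adjusted p = 0.165), and the call was made only with median-of-ratios scaling among the 13 alternatives (1.01, adjusted p = 0.0132). Adar, which edits adenosine to inosine in double-stranded RNA, measured 40.6 and 42.7 RPM in Reg4+ DCS, against 50.5 and 55.3 RPM in Lgr5+. Its populations did not overlap, its log2 fold change was -0.34 (adjusted p = 0.288), and its direction turned with median-of-ratios scaling (0.16). Eif2ak2 (PKR), the kinase that halts translation on sensing double-stranded RNA, measured 25.5 and 42.6 RPM in Reg4+ DCS, against 57.6 and 24.3 RPM in Lgr5+, and overlapped fully.

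The oligoadenylate synthetase genes make the messenger that activates RNase L. Oas1a measured 15.4 and 8.78 RPM in Reg4+ DCS, against 11.9 and 7.54 RPM in Lgr5+. Oas1g measured 5.02 and 6.36 RPM in Reg4+ DCS, against 6.53 and 3.65 RPM in Lgr5+. These genes are close copies, so how the authors' counting divided reads between them is uncertain, and in both the populations overlapped. Oasl2, a synthetase-like relative, measured 21.4 and 7.27 RPM in Reg4+ DCS, against 45.7 and 15.5 RPM in Lgr5+. Replicate 1 of Oasl2 was 2.95 times replicate 2 in Reg4+ DCS and 2.96 times in Lgr5+. Its log2 fold change was -1.03 ± 0.58 (limma adjusted p = 0.199). It was -1.78 without Lgr5+ replicate 2 (adjusted p = 0.00306) and -1.75 without Reg4+ DCS replicate 1 (adjusted p = 0.115). It was -0.27 without Lgr5+ replicate 1 (adjusted p = 0.714) and -0.31 without Reg4+ DCS replicate 2 (adjusted p = 0.724).

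The Ifit genes, whose proteins bind foreign RNA ends, were under the filter and were not tested. Ifit1 exceeded 5 RPM in a single library, Lgr5+ replicate 1, where it had 55 reads. Ifit1 measured 2.42 and 0.576 RPM in Reg4+ DCS, against 10.6 and 1.76 RPM in Lgr5+. Ifit2 was listed at 0 throughout Reg4+ DCS, against 3.46 and 1.89 RPM in Lgr5+. Ifit3 was likewise listed at 0 in Reg4+ DCS, against 0.960 and 0.251 RPM in Lgr5+. Ifit1 overlapped between populations and replicate 1 was the higher library of each.

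Among the other antiviral effectors, Rsad2 and Xaf1 had log2 fold changes over 1 in size but did not pass. Rsad2 (viperin; chr12:26442746-26456452, minus strand), a radical SAM enzyme that makes a chain-terminating nucleotide, measured 7.62 and 17.8 RPM in Reg4+ DCS, against 6.53 and 1.76 RPM in Lgr5+. Both Reg4+ DCS libraries were above both Lgr5+ libraries, although 7.62 and 6.53 RPM lay close together. The means were 12.7 ± 7.23 RPM in Reg4+ DCS and 4.15 ± 3.37 RPM in Lgr5+ (SD, n = 2 each), a ratio of 3.07, with a log2 fold change of 1.48 ± 0.55 (limma adjusted p = 0.0689). Without Lgr5+ replicate 1 the ratio was 7.23, and without Reg4+ DCS replicate 2 it was 1.84. With median-of-ratios scaling the limma adjusted p was 0.0223.

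Xaf1 (chr11:72301629-72313733, plus strand), which promotes apoptosis by opposing an inhibitor of caspases, measured 21.7 and 11.1 RPM in Reg4+ DCS, against 303 and 12.9 RPM in Lgr5+. A single library, Lgr5+ replicate 1, carried the high value, and the other 3 libraries lay within 11.1 to 21.7 RPM. Its log2 fold change was -1.98 ± 1.15 (limma adjusted p = 0.209). Without Lgr5+ replicate 1 it was 0.25, and without Lgr5+ replicate 2 it was -4.20, so that 1 library set both size and direction. The 23.4-fold gap between the Lgr5+ libraries was matched by few genes, as 5 of the 10183 tested had a ratio over 16.

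Bst2 (tetherin), which holds budding viruses at the cell surface, measured 29.5 and 42.5 RPM in Reg4+ DCS, against 27.9 and 26.9 RPM in Lgr5+. Its Reg4+ DCS libraries were both above, with a log2 fold change of 0.36 (limma adjusted p = 0.335), and 0.85 (adjusted p = 0.0267) with median-of-ratios scaling. Samd9l, a restriction factor of poxviruses, measured 86.3 and 66.0 RPM in Reg4+ DCS, against 119 and 45.6 RPM in Lgr5+. Ifi35, an interferon-induced partner of Nmi, measured 34.9 and 35.0 RPM in Reg4+ DCS, against 47.3 and 54.7 RPM in Lgr5+, with a log2 fold change of -0.53 (adjusted p = 0.122). With median-of-ratios scaling the log2 fold change of Ifi35 was -0.03. Ifi35 libraries were closely paired in Reg4+ DCS and lay below those of Lgr5+, whereas Samd9l overlapped.

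The guanylate-binding proteins, GTPases that attack the vacuoles of intracellular microbes, were low in both populations. Gbp2 measured 10.99 and 8.51 RPM in Reg4+ DCS, against 6.53 and 9.68 RPM in Lgr5+. Gbp7 measured 8.93 and 8.88 RPM in Reg4+ DCS, against 9.80 and 5.15 RPM in Lgr5+. Gbp3, under the filter, measured 3.69 and 3.35 RPM in Reg4+ DCS, against 4.03 and 2.39 RPM in Lgr5+. All 3 overlapped, and the paralogs are similar enough that reads could be divided between them. Rtp4, an interferon-induced protein that restrains flaviviruses, measured 18.1 and 6.18 RPM in Reg4+ DCS, against 27.9 and 10.1 RPM in Lgr5+. The populations of Rtp4 overlapped, and its log2 fold change was -0.61 (limma adjusted p = 0.419). It was -1.30 without Lgr5+ replicate 2 and 0.08 without Lgr5+ replicate 1. Mx2, a gene of the dynamin-like GTPase kind that is annotated as a polymorphic pseudogene, and Sp100, a nuclear body protein, stayed under the filter. Mx2 measured 1.77 and 1.52 RPM in Reg4+ DCS, against 2.11 and 1.26 RPM in Lgr5+. Sp100 measured 1.60 and 1.45 RPM in Reg4+ DCS, against 7.88 and 2.14 RPM in Lgr5+.

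Of the Isg15 system and its neighbours, none passed. Isg15, the ubiquitin-like modifier, measured 12.7 and 5.23 RPM in Reg4+ DCS, against 17.7 and 6.91 RPM in Lgr5+, with a log2 fold change of -0.40 (limma adjusted p = 0.565), and 0.07 with median-of-ratios scaling. Its replicates differed 2.42-fold in Reg4+ DCS and 2.56-fold in Lgr5+, more than the population means did. Usp18, which removes Isg15 and dampens Ifnar2 signalling, was under the filter at 3.38 and 1.24 RPM in Reg4+ DCS, against 4.42 and 1.01 RPM in Lgr5+. Herc6, the Isg15 ligase in mice, was under it too at 2.32 and 3.22 RPM in Reg4+ DCS, against 6.34 and 2.01 RPM in Lgr5+. Trim25, the ubiquitin ligase that acts with RIG-I, was among the most evenly measured members, at 102 and 106 RPM in Reg4+ DCS, against 97.6 and 95.5 RPM in Lgr5+. Its libraries did not overlap, yet the log2 fold change was 0.10 (adjusted p = 0.727).

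No ADP-ribosyltransferase of the family passed. Parp9 measured 7.44 and 7.31 RPM in Reg4+ DCS, against 15.9 and 9.80 RPM in Lgr5+. Parp14 measured 12.8 and 16.9 RPM in Reg4+ DCS, against 29.8 and 19.2 RPM in Lgr5+. Neither overlapped between populations and neither passed, with log2 fold changes of -0.69 for Parp9 (limma adjusted p = 0.144) and -0.67 for Parp14 (adjusted p = 0.139). Parp12, a relative that blocks translation of viral RNA, measured 18.3 and 14.4 RPM in Reg4+ DCS, against 22.7 and 12.9 RPM in Lgr5+, and overlapped. Without regard to the test, both Reg4+ DCS libraries lay above both Lgr5+ libraries in 6 of the 33 tested members, against 16.1% of all tested genes, and below in 12, against 56.2%.

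A further pattern ran between the replicates of each population. Replicate 1 exceeded replicate 2 by over 1.5-fold in both populations in 6 of the 33 tested genes (18.2%), against 1.91% of all tested genes. These were Dhx58, Oas1a, Oasl2, Rtp4, Xaf1 and Isg15, all induced effectors or sensors, with ratios from 1.75 to 2.95 in Reg4+ DCS and from 1.58 to 23.4 in Lgr5+. The opposite order by that margin was seen in 0 of the 33, against 2.04% of all tested genes. No receptor and no transcription factor was among the 6. The 1.5-fold margin was chosen after the values were seen, and no test was made of this count.

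Over the whole family the order of replicates was more marked in Lgr5+. Replicate 1 was above replicate 2 in 15 of the 33 genes in Reg4+ DCS, against 25.8% of all tested genes, and in 30 of 33 in Lgr5+, against 53% of all tested genes. The exceptions in Lgr5+ were Adar, Gbp2 and Ifi35. The median ratio of replicate 1 to replicate 2 was 0.987 for the members in Reg4+ DCS, where that of all tested genes was 0.841, and 1.60 for the members in Lgr5+, where that of all tested genes was 1.02. Among the untested members, Ifit1 had ratios of 4.21 in Reg4+ DCS and 6.00 in Lgr5+, and Usp18 had ratios of 2.73 in Reg4+ DCS and 4.39 in Lgr5+.

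Markers of surface colonocytes, the mature absorptive cells of the upper crypt, had the same order of replicates. Their 8 genes summed to 96.2 and 43.2 RPM in Reg4+ DCS replicates 1 and 2, and to 803 and 148 RPM in Lgr5+ replicates 1 and 2. Replicate 1 was higher in 7 of 8 of these genes in Reg4+ DCS, with Mall as the exception, and in 8 of 8 in Lgr5+. In Lgr5+ most other marker lists had that order too. Replicate 1 was higher there in 12 of 12 tuft, 6 of 7 enteroendocrine and 8 of 10 leukocyte markers. It was higher in 5 of 6 epithelium and 5 of 6 DCS and goblet markers, but in 2 of 5 stroma and 0 of 6 Lgr5+ stem markers. In Reg4+ DCS the counts of these 7 lists were 2, 2, 2, 1, 3, 1 and 1, in the same order. The tuft marker sum was 3.38 times as high in Lgr5+ replicate 1 as in replicate 2 and near the floor in both Reg4+ DCS libraries. The part of these cells in the replicate differences of the interferon genes was not tested.

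**Figure D3:**
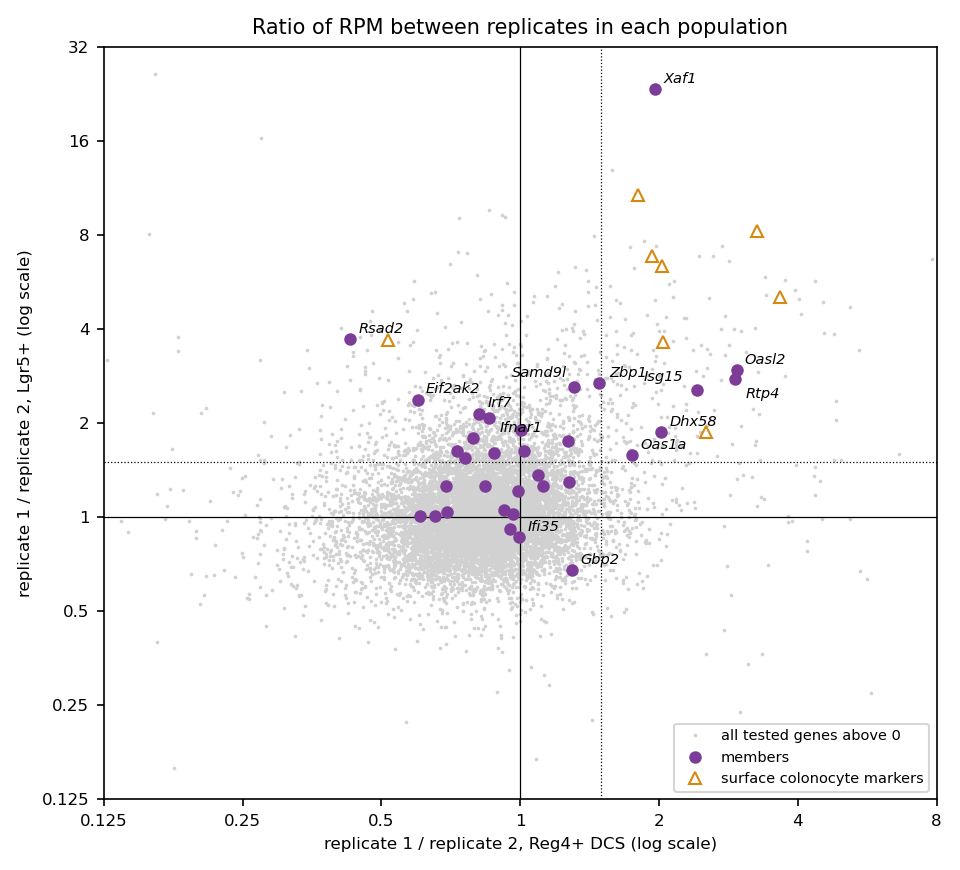
Ratio of RPM in replicate 1 to replicate 2 within Reg4+ DCS (horizontal, log axis) and within Lgr5+ (vertical, log axis) for all tested genes above 0 (grey), the 33 tested interferon genes (purple) and 8 surface colonocyte markers (orange triangles), with dotted lines at 1.5. Xaf1, Oasl2, Rtp4, Isg15, Dhx58 and Oas1a lie in the upper right corner together with 7 of the 8 colonocyte markers.

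The rest of the pathway was read from a list of 138 symbols, of which 111 were in the table and 84 were tested. The 12 interferon ligand symbols listed were not analysed here. In this list 4 genes were higher in Reg4+ DCS (Il10rb, Plscr1, Tor3a and Shisa5, 4.76%) and 17 were lower (20.2%), against 7.18% and 26.9% of all tested genes in the same order. With median-of-ratios scaling 12 were higher (14.3%, against 15.6% of all tested genes) and 11 lower (13.1%, against 12.7%). Leaving out single libraries changed these numbers, and 77 to 83 genes of the list were then tested. Of the 17 genes lower on the RPM scale, Mb21d1, Ifi47, Iigp1 and Gbp6 reached 5 RPM only in Lgr5+. A call could therefore only place these genes lower in Reg4+ DCS.

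The 3 Janus kinases that link the receptors to the factors did not pass. Jak1, which serves every interferon receptor, measured 95.8 and 90.1 RPM in Reg4+ DCS, against 99.1 and 65.1 RPM in Lgr5+ (log2 fold change 0.21, limma adjusted p = 0.561), and its populations overlapped. The log2 fold change was -0.57 for Jak2, the kinase of Ifngr2 (adjusted p = 0.248), and -0.54 for Tyk2, the kinase of Ifnar1 (adjusted p = 0.195). Socs1, the feedback inhibitor of these kinases, stood at 41.2 and 35.7 RPM in Reg4+ DCS, inside the Lgr5+ values of 60.1 and 24.0 RPM.

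The type III receptor was expressed in both populations, and its shared chain was higher in Reg4+ DCS. Il10rb, which also serves interleukin 10 and interleukin 22, measured 49.8 and 50.8 RPM in Reg4+ DCS, against 23.8 and 24.5 RPM in Lgr5+. Its mean was 50.3 ± 0.685 RPM in Reg4+ DCS and 24.2 ± 0.489 RPM in Lgr5+ (SD, n = 2 each), a 2.08-fold difference with no overlap and a log2 fold change of 1.03 ± 0.24 (limma adjusted p = 0.0151). The adjusted p was 0.0655 without Reg4+ DCS replicate 1 and 0.0510 without Reg4+ DCS replicate 2. Ifnlr1, the chain private to type III interferon, measured 6.89 and 8.88 RPM in Reg4+ DCS, against 6.72 and 7.29 RPM in Lgr5+ (log2 fold change 0.14, adjusted p = 0.750). Thus Ifnlr1 overlapped between populations while Il10rb did not.

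On the RPM scale, the genes of the wider list with the largest called differences were all lower in Reg4+ DCS. With median-of-ratios scaling, the largest called log2 fold changes lay in both directions. Those lower in Reg4+ DCS were Ifitm3 (-3.26), Ptpn6 (-2.12), Ifi47 (-1.93) and Iigp1 (-1.72). Those higher were Tor3a (1.78), Plscr1 (1.59), Trim30a (1.56) and Il10rb (1.52). Ifitm3, a membrane protein that blocks virus entry and is also high in stem cells, measured 11.5 and 8.74 RPM in Reg4+ DCS, against 114 and 192 RPM in Lgr5+ (log2 fold change -3.75, limma adjusted p = 0.000228). Ifitm2, its neighbour and paralog, measured 31.2 and 37.6 RPM in Reg4+ DCS, against 98.4 and 168 RPM in Lgr5+ (-1.88, adjusted p = 0.00307). Both were called in 13 of 13 alternatives. Ptpn6 (SHP-1), a phosphatase of blood cells that restrains Jak signalling, measured 10.6 and 14.0 RPM in Reg4+ DCS, against 139.8 and 45.1 RPM in Lgr5+ (-2.61, adjusted p = 0.00536). The Lgr5+ libraries of Ptpn6 differed 3.10-fold, in the same direction as the tuft marker sum. Its mean was 7.52 times as high in Lgr5+, or 3.67 times without Lgr5+ replicate 1 and 11.4 times without Lgr5+ replicate 2, and the adjusted p was 0.0571 without Reg4+ DCS replicate 1. The part of tuft cells and leukocytes in the Ptpn6 difference was not tested.

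Both genes at the head of the cytosolic DNA route were lower in Reg4+ DCS. Mb21d1 (cGAS), which senses DNA, measured 2.96 and 3.34 RPM in Reg4+ DCS, against 14.4 and 13.6 RPM in Lgr5+ (log2 fold change -1.85, limma adjusted p = 0.00379). Tmem173 (STING), which receives its second messenger, measured 4.02 and 10.5 RPM in Reg4+ DCS, against 21.5 and 34.3 RPM in Lgr5+ (-1.89, adjusted p = 0.0141, and 0.0774 without Reg4+ DCS replicate 1). Neither gene overlapped between populations. Mb21d1 reached 5 RPM only in Lgr5+, so it entered the test only through the population where it was high, and a call could only place it lower in Reg4+ DCS. The Tmem173 mean was 3.85 times as high in Lgr5+, and 6.94 times without Reg4+ DCS replicate 2. Tbk1, the kinase shared with the RNA sensors, measured 23.2 and 36.4 RPM in Reg4+ DCS, against 58.2 and 57.3 RPM in Lgr5+ (-0.97, adjusted p = 0.0325). Tbk1 did not pass with median-of-ratios scaling (adjusted p = 0.1699), nor when Reg4+ DCS replicate 1 (0.157), Lgr5+ replicate 1 (0.0620) or Lgr5+ replicate 2 (0.0565) was left out.

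Of 53 tested induced effectors outside the 42 genes, 3 were higher in Reg4+ DCS (5.66%, against 7.18% of all tested genes) and 11 lower (20.8%, against 26.9%). Iigp1 and Ifi47, immunity-related GTPases induced by interferon gamma, were close to the floor in Reg4+ DCS. Iigp1 measured 1.06 and 0.818 RPM in Reg4+ DCS, against 6.53 and 7.79 RPM in Lgr5+ (log2 fold change -2.07, limma adjusted p = 0.00352). Ifi47 measured 1.06 and 0.409 RPM in Reg4+ DCS, against 10.4 and 5.03 RPM in Lgr5+ (-2.28, adjusted p = 0.00601). Gbp6 measured 1.52 and 2.23 RPM in Reg4+ DCS, against 7.30 and 6.79 RPM in Lgr5+ (-1.50, adjusted p = 0.0130, and 0.0826 without Reg4+ DCS replicate 1). The Reg4+ DCS libraries of these 3 genes were all below the Lgr5+ libraries. Iigp1 and Ifi47 had 0 reads in the larger part of each Reg4+ DCS library, and 2 to 4 reads in the other part made up each value. With the RPM of that other part alone, Iigp1 measured 2.12 and 1.64 RPM and Ifi47 2.12 and 0.818 RPM in Reg4+ DCS. The mean was then 3.82 times as high in Lgr5+ for Iigp1 (7.64 times as deposited) and 5.25 times for Ifi47 (10.5 times as deposited), with log2 fold changes of -1.51 (adjusted p = 0.0135) and -1.80 (adjusted p = 0.0190) in the same order. As deposited, the Ifi47 ratio was 18.8 without Reg4+ DCS replicate 1 and 6.86 without Lgr5+ replicate 1. Ifi47, Iigp1, Gbp6 and Mb21d1 fell under the filter when either Lgr5+ library was left out. They reached 5 RPM only in Lgr5+, so a call could only place them lower in Reg4+ DCS.

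The 3 effectors higher in Reg4+ DCS were Plscr1, Tor3a and Shisa5. Plscr1, a phospholipid scramblase with antiviral activity, measured 224 and 209 RPM in Reg4+ DCS, against 109 and 95.2 RPM in Lgr5+ (log2 fold change 1.08, limma adjusted p = 0.00795). Tor3a, an ATPase of the endoplasmic reticulum, measured 74.4 and 93.5 RPM in Reg4+ DCS, against 36.5 and 31.3 RPM in Lgr5+ (1.28, adjusted p = 0.00697). Shisa5, a membrane protein of the same organelle, measured 139 and 139.7 RPM in Reg4+ DCS, against 87.8 and 76.9 RPM in Lgr5+ (0.75, adjusted p = 0.0317). All 3 had Reg4+ DCS libraries above both Lgr5+ libraries. Tor3a was called in 13 of 13 alternatives, Plscr1 in 12, where the exception was without Reg4+ DCS replicate 1 (adjusted p = 0.0567), and Shisa5 in 8. The adjusted p of Shisa5 was 0.114 without Reg4+ DCS replicate 1, 0.0868 without Reg4+ DCS replicate 2, 0.0591 without Lgr5+ replicate 1 and 0.145 without Lgr5+ replicate 2.

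**Figure D4:**
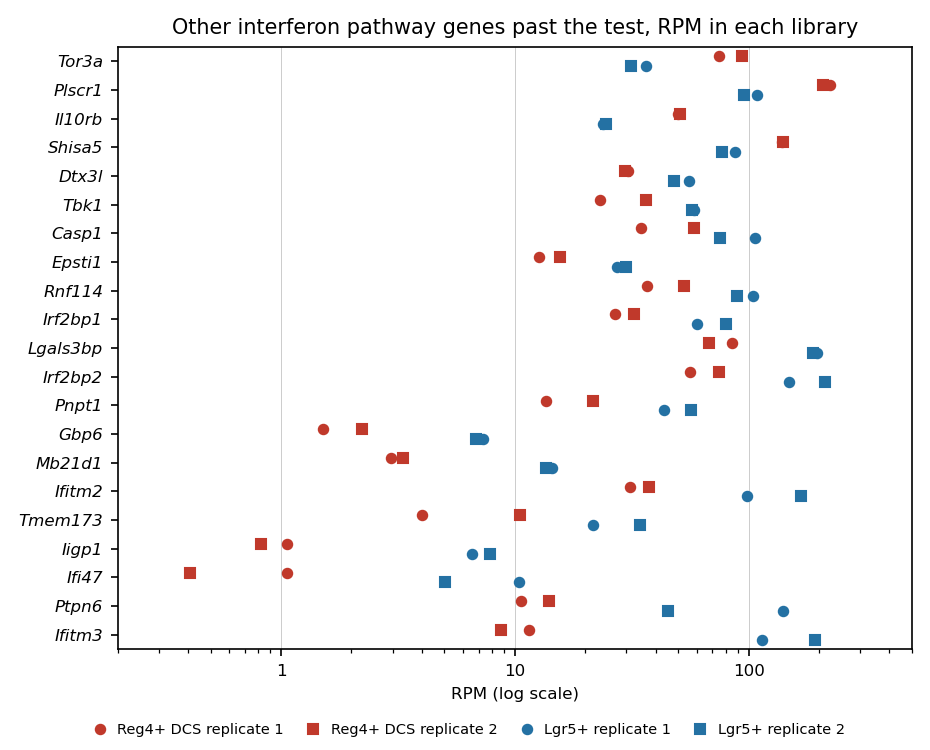
RPM (log axis) in each library of the 21 other interferon pathway genes that passed an adjusted p of 0.05, ordered by log2 fold change, with Reg4+ DCS in red above Lgr5+ in blue, circles for replicate 1 and squares for replicate 2. The upper 4 genes, Tor3a to Shisa5, have Reg4+ DCS on the right, and the lower 17, ending with Ifitm3, have it on the left.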

How the data were processed

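RNA of 2 Reg4+ DCS and 2 Lgr5+ libraries was made into CEL-seq libraries and sequenced as paired ends per the labels' protocols. Reads were aligned with BWA 0.6.2-r126 to mm10 per the submitters' processing notes. The authors deposited RPM per gene, reads scaled so that every column sums to 1000000. The sources used here do not give how reads were assigned to genes or the use of strand and molecular identifiers. CEL-seq reads come from the 3′ end, so values do not scale with length. The size of a read was recovered from the RPM steps. Lgr5+ values were whole reads for 100% of genes (tolerance 0.01 reads). Each Reg4+ DCS column behaved as a mean of 2 separately scaled parts, decoded uniquely for 99.7% and 98.6% of genes.

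limma 3.58.1 in R 4.3.3 (eBayes with trend) was fitted to log2(RPM + 1) of the 10183 genes with at least 5 RPM in at least 2 libraries, with population as the single factor, and p-values were Benjamini-Hochberg adjusted over all of them. This scale understates the change of low genes. Fold changes are Reg4+ DCS minus Lgr5+, and ratios are of mean RPM. The alternatives were pseudocounts of 0.5 and 5 RPM, no filter, a filter at 10 RPM, median-of-ratios scaling, no trend, a replicate block, and each library left out, where a lone sample is assumed to vary like the other group. After the data were seen, edgeR 4.0.16 quasi-likelihood on the recovered reads was added, and a fit in which genes with 0 reads in part A of both Reg4+ DCS libraries, or in part B of both, took the RPM of the other part. The fit was tested on simulated data.

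The 42 genes and the other lists were chosen with earlier results of these data known. Values in every library are given for receptors, Stat2 and Irf genes, for called members and for those with an absolute log2 fold change of at least 1. The remaining members are shown by choice made after the values were seen. From the wider list the 8 called genes with the largest absolute log2 fold changes are given, with Jak1, Jak2, Tyk2, Ifnlr1, Il10rb and Socs1, and 1 further gene of that rule is not reported here. Tbk1, Plscr1, Tor3a and Shisa5 were added after the values were seen. Coordinates are GENCODE M21 on GRCm38, the assembly of mm10. A gene of another name lay over the last 1000 bases of 7 members.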

Additional observations from a re-analysis of the deposited data

How the results depend on the processing

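Zbp1 and Irf8 were each called in 12 of 13 alternatives. Of 424 member values under alternatives, 379 kept direction and side of the threshold, 13 newly passed, 2 lost the call and 30 turned direction. Median-of-ratios scaling gave 5 members higher and 12 other pathway genes higher in Reg4+ DCS, 11 other pathway genes lower, and over all genes 1591 higher and 1297 lower, with medians of 0.16 for members and 0.0171 for all genes. It turned Adar (0.16), Ddx58 (0.0267), Eif2ak2 (0.32), Ifngr1 (0.0689), Irf1 (0.0479), Isg15 (0.0677), Parp12 (0.41) and Stat2 (0.45), a shift that the scaling itself makes. Without a filter 2 members were lower (Ifit2 and Irf8). edgeR on recovered reads, which called 744 genes higher and 2704 lower, turned Samd9l (-0.17) and Socs1 (-0.0902), and a pseudocount of 5 RPM turned Socs1 (-0.0036). Leaving out single libraries gave 349 to 706 genes higher and 1060 to 2288 lower, 0 to 2 members higher and 0 to 5 lower, 1 to 4 other pathway genes higher and 6 to 16 lower, and member medians of -0.47 to 0.12. Log2 fold changes then spanned -0.28 to 0.63 for Dhx58, -0.79 to 0.43 for Eif2ak2, -9.93e-05 to 0.50 for Gbp2, -0.12 to 0.69 for Gbp7, -0.23 to 0.86 for Irf7, -1.02 to 0.22 for Isg15, -0.10 to 0.64 for Oas1a, -0.18 to 0.52 for Oas1g, -0.46 to 0.31 for Parp12, -1.31 to 0.0935 for Rtp4, -0.65 to 0.71 for Samd9l, -0.38 to 0.28 for Stat2, -4.20 to 0.25 for Xaf1, -0.0200 to 0.30 for Ifnlr1, -0.0921 to 0.51 for Jak1 and -0.64 to 0.65 for Socs1. The replicate block gave 2 members higher (Rsad2 and Zbp1) and 3 lower (Irf8, Oasl2 and Xaf1), and 910 genes higher and 3534 lower. Same-numbered libraries deviated together with a correlation of 0.212 over 10183 genes, but with 2 pairs and no statement in the labels the samples share only a number. Beyond the scaling shift and the libraries left out, the cause of each change was not tested.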

Other observations

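Further interferon-induced genes of the wider list were named after their values were seen. Mx1, a dynamin-like GTPase that blocks influenza virus, measured 6.98 and 4.005 RPM in Reg4+ DCS, against 1.73 and 0.629 RPM in Lgr5+, and was not tested because a single library exceeded 5 RPM. Trim30a, a ubiquitin ligase of the tripartite motif family, measured 8.38 and 5.003 RPM in Reg4+ DCS, against 3.07 and 1.76 RPM in Lgr5+ (log2 fold change 1.16, limma adjusted p = 0.0506, and 0.0225 with median-of-ratios scaling). The Reg4+ DCS libraries of both lay above the Lgr5+ libraries. Trim30a reached 5 RPM only in Reg4+ DCS, so a call could only place it higher there.

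Lgals9, a galectin, measured 286 and 142 RPM in Reg4+ DCS, against 249.9 and 119.7 RPM in Lgr5+, so that replicate 1 was 2.02 times replicate 2 in Reg4+ DCS and 2.09 times in Lgr5+. Oas2 measured 29.9 and 14.5 RPM in Reg4+ DCS, against 94.5 and 24.0 RPM in Lgr5+. Replicate 1 exceeded replicate 2 by over 1.5-fold in both populations in 7 of the 84 other pathway genes tested (Trim56, Oas2, Ifi47, Trim30a, Ddx60, Lgals9 and Casp4, 8.33%), against 1.91% of all tested genes, and the opposite held for Tmem173 alone. Ifi47 and Trim56 had no reads in a given part of either Reg4+ DCS library, Ifi47 in part A and Trim56 in part B. Some of these ratios rest on few reads. In Reg4+ DCS replicates 1 and 2, Ifi47 had 4 and 2 reads, Trim56 had 90 and 9, and Ddx60 had 55 and 8.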
